A study of Rattus norvegicus with 96 samples.

Results

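The comparison described here was that of nicotine (NIC) with saline (SAL) in the nucleus accumbens (NAc) core of male rats, its libraries taken by their labels for region, sex and treatment. It held 16 of the 96 RNA-seq libraries of the series, 8 from NIC rats (numbered 9 to 16) and 8 from SAL rats (numbered 1 to 8). The series profiled NAc core, NAc shell and ventral tegmental area (VTA) of 32 rats, 16 per sex, in a model of NIC sensitization (SST), a lasting rise of the locomotor response after repeated doses of the drug. All rats were F1 progeny of the inbred strains F344 and BN from both reciprocal crosses, so that the controls shared this genetic background. The NIC males had 0.4 mg/kg of NIC (base) on each of 4 days and the SAL males the same number of saline injections. Brain tissue was harvested on day 17 per the labels, with no further dose. The question was therefore which transcripts still differed after the drug had been withdrawn.

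The NAc core is the part of the ventral striatum that turns motivational signals into action. Most of its neurons are GABAergic projection neurons that carry either the D1 or the D2 dopamine receptor, and a small number of cholinergic and other interneurons regulate them. Nicotine acts on nicotinic acetylcholine receptors, ligand-gated cation channels found on dopamine terminals and on striatal interneurons, and repeated exposure changes dopamine release in this region. The tissue also holds glia, vessels and the fibroblasts that line vessels and the meninges, and a tissue sample carries the RNA of all of them. In such bulk samples, fewer cells of a type and less RNA per cell cannot be told apart.

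The dissection label was checked against markers. Over the 16 libraries the median level was 66.8 CPM (counts scaled to a common library size) for Drd1 (D1 receptor), 132 for Drd2 (D2 receptor), 196.5 for Pdyn (prodynorphin) and 1190 for Ppp1r1b (DARPP-32). Th, the rate-limiting enzyme of dopamine synthesis, lay between 1.00 and 2.76 CPM against at least 414 CPM in every male VTA library, and Slc6a3, the dopamine transporter, did not exceed 0.772 CPM. Ranges of NAc core and NAc shell overlapped for all of these genes. The total count of a library lay between 17607159 and 23841019 with group means that were not separated beyond the spread between libraries (19623122 in NIC and 20491482 in SAL, exact permutation test, two-sided, p = 0.294).

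Several libraries stood apart. The first principal component of the 500 most variable genes held 41.1% of their variance, and its end with SAL 1, SAL 3 and NIC 10 had low levels of striatal neuron genes: 12 markers of striatal projection neurons summed to 1463 CPM in SAL 1, 2125 in SAL 3 and 1993 in NIC 10, against 2680 to 6767 CPM in the other 13. Drd1 was at 9.22 CPM in SAL 1. The second component (11.6%) had the fibroblast genes Igf2, Ptgds, Fmod and Col1a2 among its 5 leading genes and had NIC 9 at its end. NIC 9 had the highest summed level of 27 fibroblast genes (7043 CPM) and the lowest of 3 cortical neuron genes (1187 CPM, next lowest 2150). Nrgn (neurogranin) alone made up 1032 CPM of the cortical sum in NIC 9. SAL 4 and SAL 8 had the lowest fibroblast sums, at 1888 and 1670 CPM. No library of a group matched another within counting noise: the smallest chi-square per degree of freedom among 56 pairs was 7.32.

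**Figure D1:**
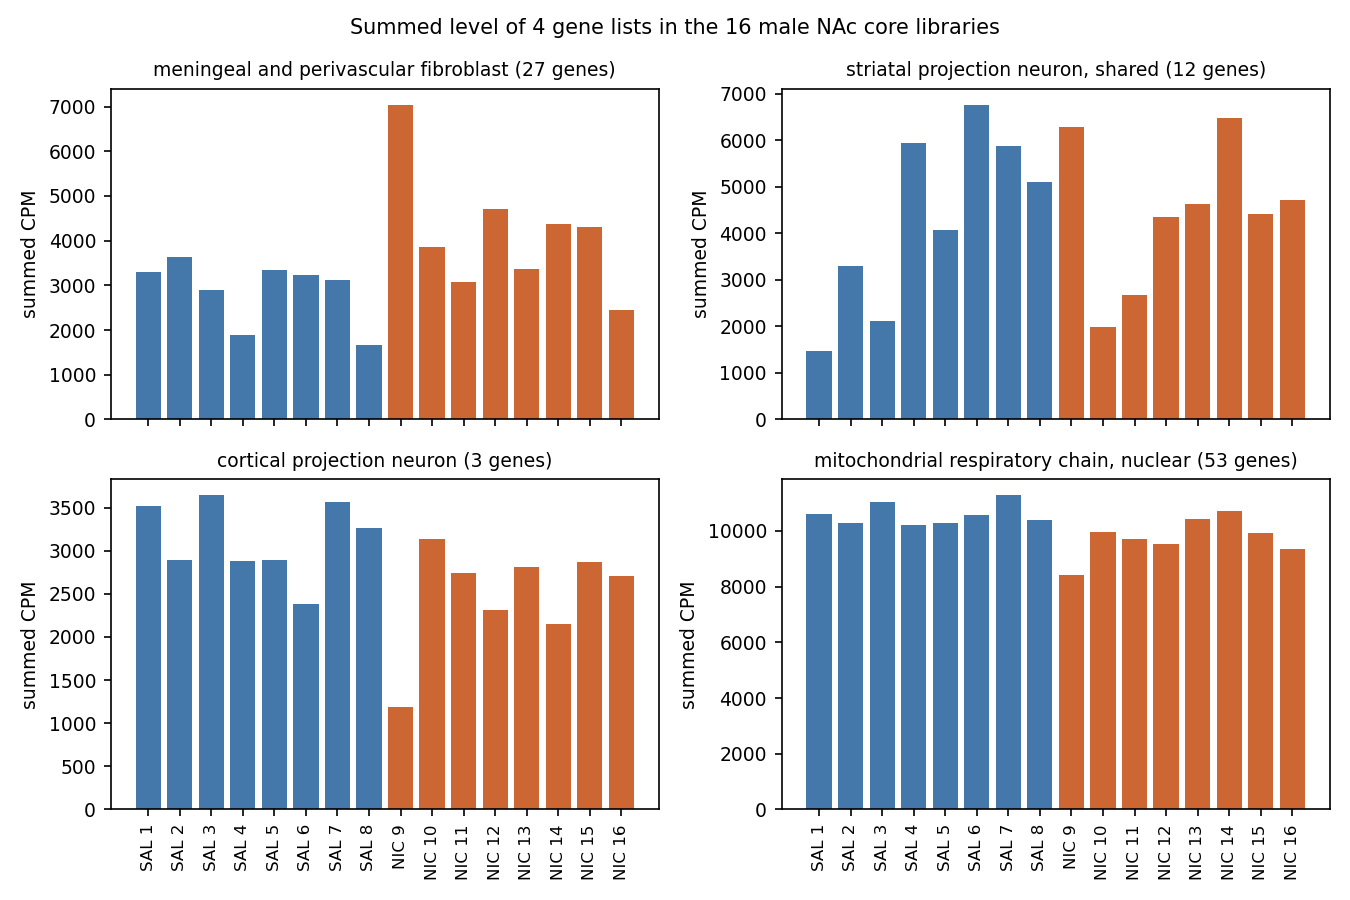
Summed level (CPM) of 4 gene lists in each of the 16 male NAc core libraries, blue for SAL and orange for NIC. Most of the cortical neuron sum was Nrgn (1032 CPM in NIC 9). Fibroblast genes reached 7043 CPM in NIC 9 against a SAL maximum of 3634, projection neuron genes were lowest in SAL 1 (1463 CPM), cortical neuron genes were lowest in NIC 9 (1187 CPM), and respiratory chain genes lay between 8403 and 10700 CPM in NIC and between 10200 and 11290 in SAL.

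Across the 16879 genes tested with edgeR's quasi-likelihood test, 1660 had an unadjusted p under 0.05, the threshold used by the study, which was 9.83% of those tested. Of these, 975 were higher in NIC (5.78% of genes tested) and 685 lower (4.06%), and a gene of either kind is named as called from here on. No gene passed a Benjamini-Hochberg adjusted p of 0.05 and the smallest was 0.406; DESeq2 placed 4 genes past it. The changes were small, with a median absolute log2 fold change of 0.24 among called genes. Among genes with at least 1 CPM, 96 were called and differed more than 1.5-fold, of which 81 were higher and 15 lower in NIC. The levels of all 8 NIC libraries lay on one side of all 8 SAL libraries for 9 genes, 0.0533% of those tested, and all of these were called. They were Rasl10b, Slc26a2, Vegfd, Trim14 and Zfp395, higher in NIC, and Dohh, Sqle, Ddx24 and Ddx50, lower in NIC; apart from Rasl10b, Slc26a2 and Dohh they were named after their values were seen. Without NIC 9 the count of called genes was 1046, and 974 of the 1660 genes remained called in the same direction. Without SAL 1 it was 1726.

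Rasl10b (ENSRNOG00000010302, chromosome 10), which encodes a small GTPase of the Ras superfamily, had the smallest p of all genes. Its level was 27.98, 16.3, 19.2, 14.5, 14.4, 16.1, 19.5 and 13.7 CPM in NIC 9 to NIC 16. In SAL 1 to SAL 8 it was 7.00, 8.00, 4.22, 8.94, 12.6, 11.6, 6.31 and 11.7 CPM. Every NIC library was thus above every SAL library, the closest being NIC 16 and SAL 5. NIC rats averaged 17.7 ± 4.66 CPM and SAL rats 8.80 ± 2.97 CPM (SD over 8 rats per group). The log2 fold change was therefore 1.01, with SE 0.20 (edgeR unadjusted p = 5.8e-05, adjusted p = 0.406). The exact permutation test gave p = 0.000155, the smallest that 12870 assignments of 16 rats can give, and DESeq2 gave an adjusted p of 0.00213. Without NIC 9 the log2 fold change was 0.88.

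The same gene was measured in other rats and in other regions of these rats. In female NAc core, a group of separate animals, it was at 14.9 ± 8.47 CPM in 7 NIC rats and 5.92 ± 1.44 CPM in 8 SAL rats (SD), a log2 fold change of 1.34 (SE 0.28; edgeR unadjusted p = 0.000156, adjusted p = 0.527). There 4 of the 7 NIC libraries lay at 12.6 to 28.1 CPM, the next at 7.75 CPM just above the highest SAL library (7.73), and the remaining ones (6.57 and 7.44 CPM) within the SAL range. Library preparation batch divided the treatments in females, and only batch J held both. In batch J, Rasl10b was at 7.75 and 28.1 CPM in NIC and at 5.80 and 7.73 CPM in SAL. Outside batch J, batch and treatment cannot be told apart. The sex-by-treatment term of edgeR was not past the threshold (unadjusted p = 0.378, adjusted p = 0.804). In male NAc shell the mean was 15.5 ± 10.3 CPM in NIC and 11.7 ± 7.70 in SAL, and in male VTA 11.3 ± 2.52 CPM in 8 NIC and 10.8 ± 2.09 CPM in 7 SAL libraries. The log2 fold change of 0.07 in VTA differed from that in NAc core (edgeR region-by-treatment term, unadjusted p = 0.000915, or 0.00115 with the animal as a block). For the 0.41 in NAc shell this edgeR term was not past the threshold (unadjusted p = 0.204, or 0.0795 with the block).

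**Figure D2:**
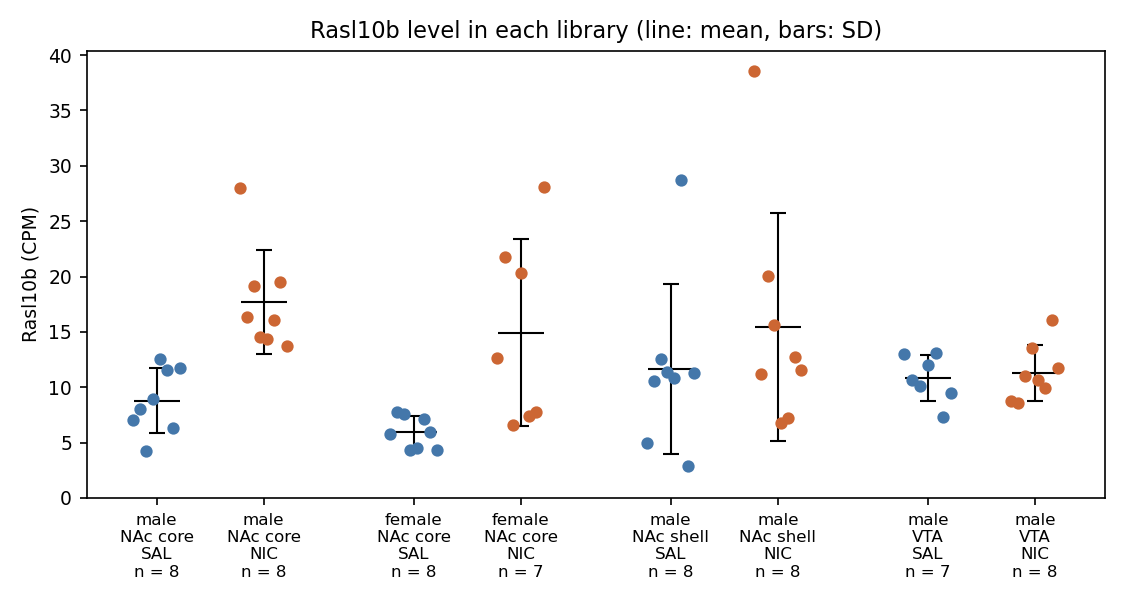
Rasl10b level (CPM) in each library of male NAc core, female NAc core, male NAc shell and male VTA, with each group's mean and SD. The 8 male NAc core NIC libraries sit between 13.7 and 27.98 CPM, above the 8 SAL libraries (4.22 to 12.6), and the shell and VTA groups overlap.

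Of 17 Ras-like small GTPases measured, 2 were called higher (Rasl10b and Rem1) and 2 lower in NIC (Rit2 and Rasl11b), with a median log2 fold change of 0.00, against a median of -0.01 over all genes tested. Over all genes 5.78% were higher and 4.06% lower. The higher count was 1 without SAL 3, SAL 7, SAL 8, NIC 9 or NIC 12. The lower count was 1 without SAL 1, SAL 2, SAL 3, SAL 5, NIC 9, NIC 12 or NIC 16. Symbols came from the study's own tables, so called genes were more often named. Of the 15 Ras-like genes named by tables of other comparisons, 2 were higher and 1 lower. Of all genes named in that way, 7.76% were higher and 4.28% lower.

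The other genes leading the higher side had various known roles. Dab2, a clathrin adaptor found in fibroblasts and macrophages, was at 17.7 to 37.2 CPM in NIC (median 24.4) and 10.5 to 20.3 in SAL (median 16.5), and 6 NIC libraries exceeded every SAL library (log2 fold change 0.72, SE 0.15, edgeR unadjusted p = 0.000145). Slc26a2, the sulfate transporter needed for proteoglycan synthesis, was low but separated the groups completely, at 1.64 to 5.53 CPM in NIC and 0.356 to 1.55 in SAL (1.20, SE 0.27, edgeR unadjusted p = 0.000272). Slc16a12, a creatine transporter, lay at 9.51 to 20.6 CPM in NIC and 5.59 to 10.1 in SAL, so that only the ends of the ranges overlapped. Notch3, the Notch receptor of pericytes and vascular smooth muscle, was at 19.5 to 31.8 CPM in NIC and 13.3 to 21.4 in SAL. Notch2 and Stab1, a scavenger receptor of macrophages and some endothelia, had log2 fold changes of 0.40 and 0.58. The remaining genes of the 12 with the smallest p on this side were Map3k1, a stress-activated kinase (0.64), Uhrf1bp1 (0.48), the actin-binding Mical3 (0.32) and Afap1 (0.30) and Rgs3, a brake on G protein signalling (0.22).

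The gene with the smallest p on the lower side was LOC108348072, a locus without an assigned name, which the rule for named genes passed over and which was chosen after its values were seen. It was at 0.0541 to 1.38 CPM in NIC. In SAL it was at 7.56 to 8.88 CPM in 5 libraries but at 1.73 in SAL 3, 0.594 in SAL 5 and 0.275 in SAL 8, so that the groups overlapped through the last 2. The log2 fold change was -2.87 (SE 0.60, edgeR unadjusted p = 0.000127, adjusted p = 0.406; exact permutation p = 0.0107), and DESeq2 gave an adjusted p of 0.0455.

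The 12 named genes leading the lower side had log2 fold changes between -0.17 and -0.45. Vps28, a subunit of the ESCRT-I complex that sorts membrane proteins for degradation, was at 82.9 to 99.2 CPM in NIC (median 91.9) and 95.7 to 111 in SAL (median 106), a log2 fold change of -0.19 (SE 0.05, edgeR unadjusted p = 0.000547). Dohh, which completes the hypusine modification of a translation factor, was at 51.9 to 67.9 CPM in NIC and 68.7 to 74.3 in SAL, with no overlap (-0.22, SE 0.06). Mpg, a DNA repair glycosylase, had the largest change of these 12 at -0.45 (3.59 to 5.59 CPM in NIC and 4.78 to 7.55 in SAL). The chromatin factor Lrif1 (-0.32), Cfap97 (-0.30), the calcium channel modulator Car8 (-0.29), the tubulin folding cofactor Tbcc (-0.26), the mitochondrial ribosomal protein Mrpl37 (-0.25), the ciliary protein Armc9 (-0.22), the peroxisomal transporter Abcd2 (-0.19), the proteasome ATPase Psmc3 (-0.18) and the nucleolar protein Noc4l (-0.17) made up the rest. For these 24 genes, which were picked by their p, the exact permutation p was at most 0.00249.

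Of these 24 genes, Rasl10b was the only one called in female NAc core, where 6.45% of all genes tested were. The sign was the same there for 14. The sex-by-treatment term had an unadjusted p under 0.05 for 18 of the 24, where it did so for 1500 of all genes tested (8.89%); no adjusted p of this term passed 0.05 (smallest 0.454, edgeR). The 6 without it were Rasl10b, Slc16a12, Notch3, Lrif1, Dohh and Noc4l. Since the 24 were picked on the male libraries, part of any difference from females was fixed by that choice. The sexes also shared no library preparation batch in NAc core, so the sex-by-treatment term cannot be told apart from batch. Over all 1660 genes called in males, 871 (52.5%) had the same sign in females, and 38 were called in the same direction in both sexes, which was 2.29% of the male calls and 3.49% of the 1088 female calls. A further 37 were called in opposite directions, where 6.45% of all genes tested were called in females in either direction.

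**Figure D3:**
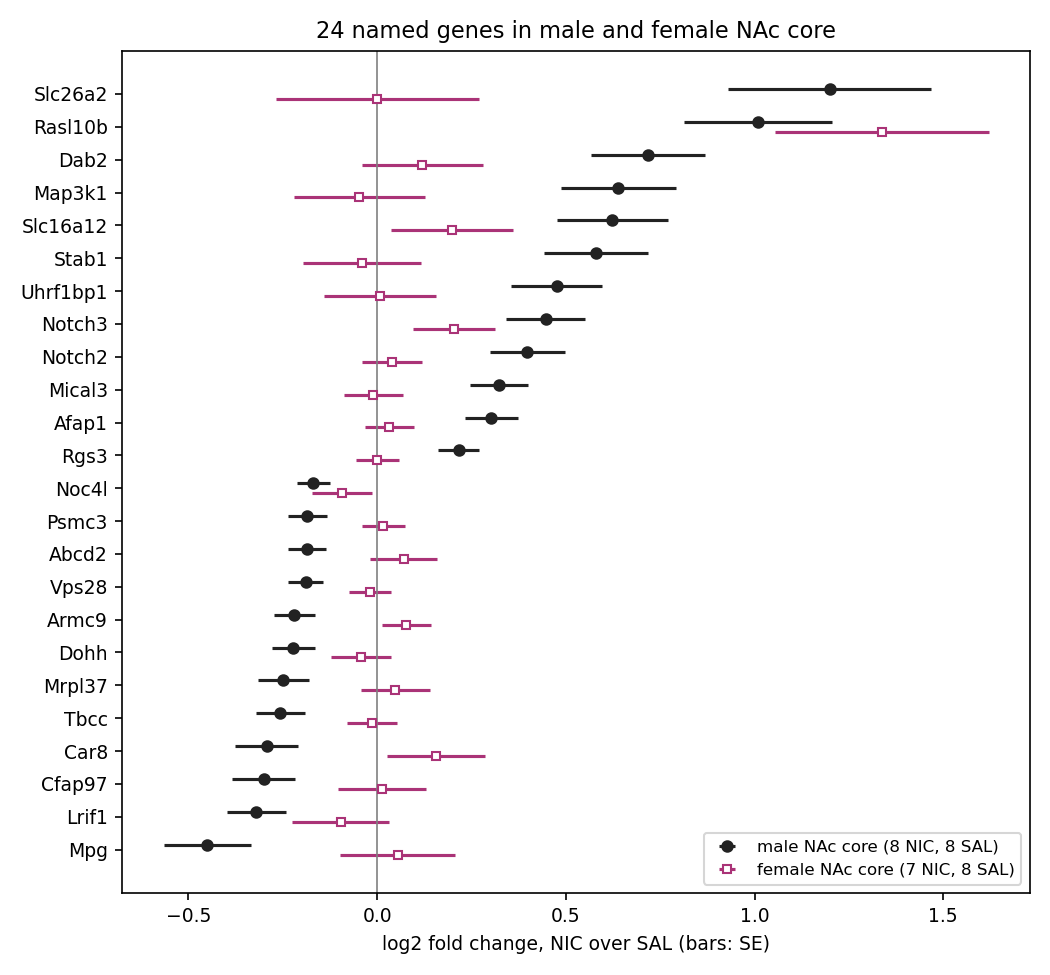
Log2 fold change of NIC over SAL (points, with SE) for the 24 genes that led the 2 directions in male NAc core, beside the same genes in female NAc core. Rasl10b (1.01 in males and 1.34 in females) is the only one called in both sexes.

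Between regions, the difference of the NIC effect in NAc core from that in NAc shell had an unadjusted p under 0.05 for 523 genes (3.1% of those tested), and for 887 with the animal as a block. Against VTA it did so for 1027 genes (6.08%). No adjusted p passed 0.05 in either (smallest 0.486 and 0.409, edgeR). Of the 24 genes, 10 passed the unadjusted threshold of edgeR against shell, Notch2 (unadjusted p = 0.0121), Rgs3 (unadjusted p = 0.00869) and Map3k1 (unadjusted p = 0.0168) among them, and 12 passed it against VTA. When the animal was a block, these numbers were 10 and 10; against VTA, Armc9, Tbcc and Cfap97 were lost and Mical3 was gained. Each had been picked on the core libraries, so these counts are a description. In shell itself, 415 genes were called (2.46% of those tested), 2 of the 24 among them. The sign was the same in shell as in core for 22 of the 24 and for 1102 (66.4%) of all 1660 genes called in core, in the same rats.

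Genes of meningeal and perivascular fibroblasts, the cells that build the collagenous sheath of the brain surface and its larger vessels, formed the list with the highest share of called genes among those examined. Of 29 genes on the list, 27 were measured with a symbol. Of these, 25 were called higher in NIC and none lower, with a median log2 fold change of 0.54 against -0.01 for all genes tested. Symbols came from the study's own tables, one of which lists genes that differed in these very libraries, so that called genes were more often named. Of the 13 members also named by tables of other comparisons, 11 were called higher and none lower (median 0.46), where 7.76% of the 7225 genes named in that way were called higher and 4.28% lower.

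The collagens that form the fibres of this sheath showed the pattern. Col1a2, a chain of type I collagen, was at 219, 127, 95.9, 147, 111, 113, 155 and 75.7 CPM in NIC 9 to NIC 16. In SAL 1 to SAL 8 it was 95.8, 105, 87.7, 53.4, 90.9, 90.7, 85.9 and 48.0 CPM. NIC 9 was highest, SAL 4 and SAL 8 were lowest, and the ranges overlapped through NIC 11 and NIC 16 (log2 fold change 0.67, SE 0.19, edgeR unadjusted p = 0.00238). Col1a1, its partner chain, lay at 42.8 to 104 CPM in NIC and 28.7 to 61.6 in SAL (0.58, SE 0.18, edgeR unadjusted p = 0.00411). Col14a1, a fibril-associated collagen, was at 1.41 to 4.59 CPM in NIC and 0.864 to 2.08 in SAL (0.86).

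The summed level of the 27 fibroblast genes was 7043, 3861, 3068, 4715, 3361, 4365, 4312 and 2459 CPM in NIC 9 to NIC 16. It was 3289, 3634, 2891, 1888, 3348, 3231, 3128 and 1670 CPM in SAL 1 to SAL 8. The groups overlapped, and 5 NIC libraries (NIC 9, NIC 10, NIC 12, NIC 14 and NIC 15) were above every SAL library. More than 1 gene carried it: without Ptgds, the prostaglandin D synthase that was most abundant, the sum ran from 994 to 2525 CPM in NIC and from 711 to 1454 in SAL. NIC 9 was the highest of the 16 libraries for 26 of the 27 genes. Without NIC 9, 16 of the 27 were called higher, with a median of 0.38; without SAL 1, 24 were (median 0.56). A fit of all 12 groups together, with 1 estimate of spread for all regions and both sexes, called 10.

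Genes of neighbouring structures were called in part; beside the counts that follow, 5.78% of all genes tested and 7.76% of genes named by tables of other comparisons were called higher. Of 26 extracellular matrix genes 15 were called higher and none lower (median 0.21), among them Nid1, a basement membrane protein (0.40, SE 0.12). That count was 6 without NIC 9, 7 without SAL 3, 8 without SAL 4, SAL 8 or NIC 15, and 9 without NIC 12. Among the 21 matrix genes named by tables of other comparisons, 10 were higher. Of 31 collagens 11 were higher (median 0.23), but 4 of the 24 named by tables of other comparisons (median 0.15). Of 15 solute carriers known from meninges or vessels 11 were higher (median 0.52), and 7 of the 11 named by other tables, Slc26a2 and Slc16a12 among them. The matrix, collagen and solute carrier lists each share members with the fibroblast list. Of 8 mural cell genes 3 were higher, Notch3 and the receptor Pdgfrb (0.28) among them, and of 10 endothelial genes 3 were, led by the VEGF receptor Kdr (0.28) and joined by Cdh5, the endothelial cadherin (0.30). Among 5 genes of perivascular macrophages, Cd163, a scavenger receptor for haemoglobin, was the only one called (0.53, SE 0.24, edgeR unadjusted p = 0.0381; exact permutation p = 0.0608). That count ran from 0 to 3 when single libraries were left out: it was 0 without SAL 6, SAL 7, SAL 8, NIC 9, NIC 10, NIC 13 or NIC 15, 2 without NIC 11 or NIC 14 and 3 without SAL 1, SAL 2, SAL 5 or NIC 16. Of 12 Notch pathway genes 5 were higher (5.78% of all genes), Notch1, Notch2, Notch3, Maml2 and Heyl. Among the 11 Notch genes named by tables of other comparisons, 4 were higher. The endothelial count was 6 without SAL 1, 5 without SAL 2 and 1 without any single one of SAL 4, SAL 6, SAL 7, SAL 8, NIC 9 or NIC 15. The Notch count was 2 without SAL 7, NIC 9 or NIC 15 and 3 without SAL 3, NIC 11 or NIC 16, and the mural count was 6 without SAL 2 or NIC 16 and 1 with library preparation batch as a covariate. The call of Cdh5 was lost without any 1 of 9 libraries and that of Cd163 without any 1 of 7. That of Heyl was lost without SAL 7, NIC 9 or NIC 15. All 3 genes kept their direction. No gene of 9 for microglia or 7 for astrocytes was called.

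In female NAc core the fibroblast list had no called gene in either direction and a median log2 fold change of 0.07, where 2.87% of all genes were called higher in NIC. The sex-by-treatment term passed the unadjusted threshold for 6 of its 27 genes (8.89% of all genes). In male NAc shell and VTA, from the same rats, 2 and 1 of the 27 were called higher, with medians of 0.15 and 0.39, where 1.02% of all genes were called higher in shell and 2.35% in VTA.

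**Figure D4:**
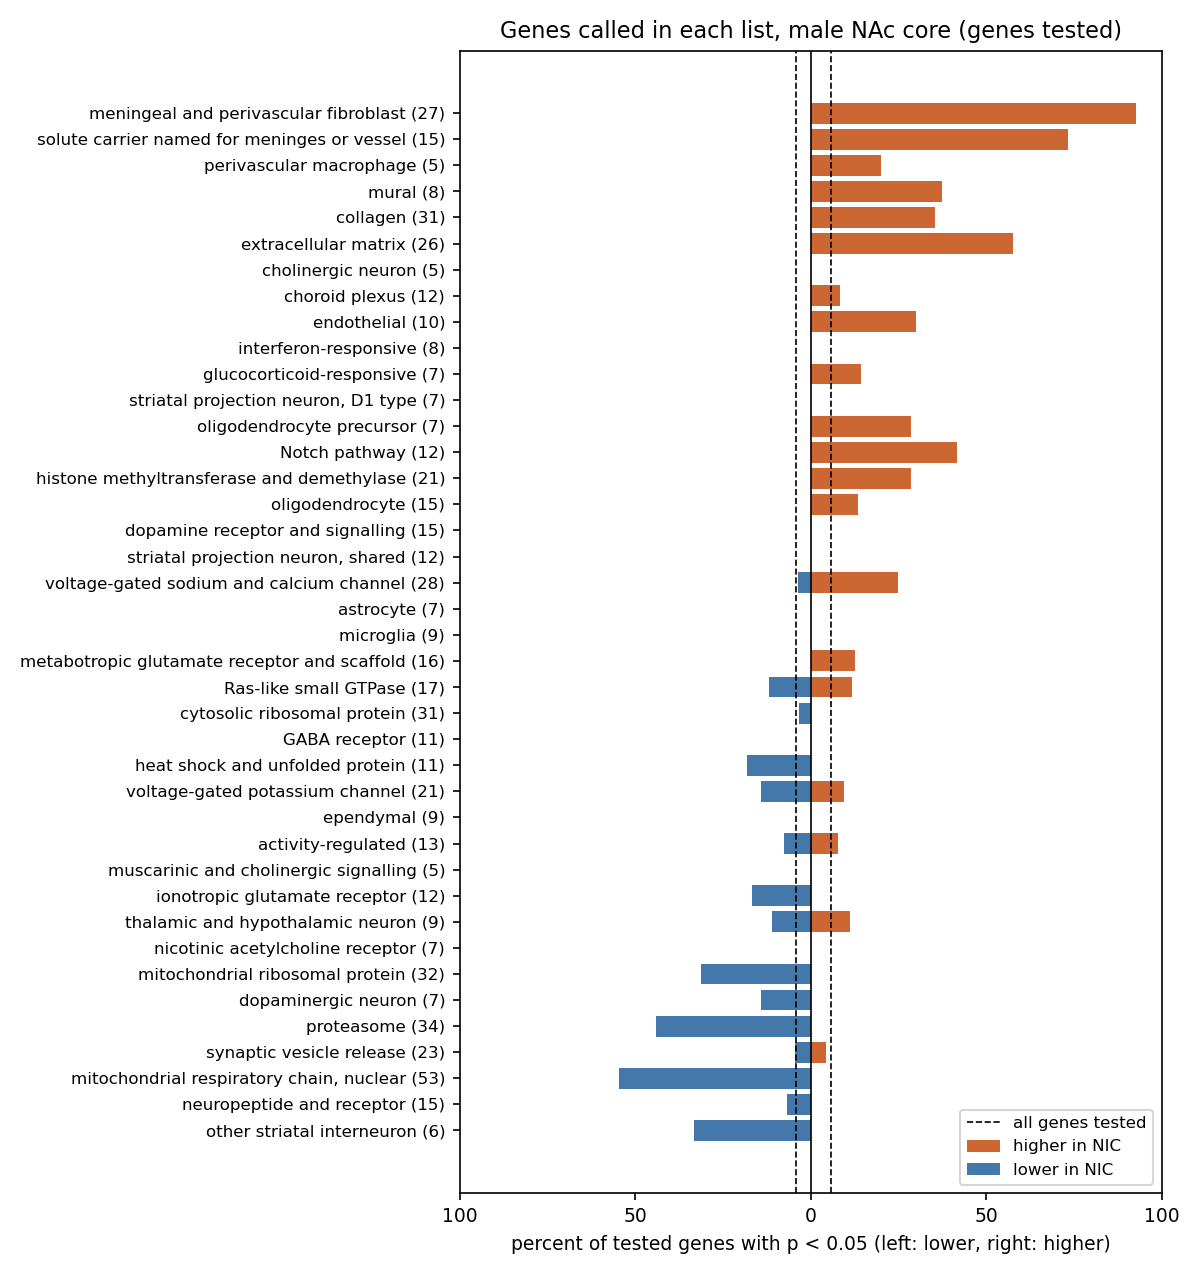
Percent of the tested genes of each list with an unadjusted p under 0.05 in male NAc core, higher in NIC to the right and lower to the left, with dashed lines at the values for all genes tested (5.78% higher and 4.06% lower). Among the lists shown, which leave out the shortest ones, the fibroblast list (25 of 27 higher) and the respiratory chain list (29 of 53 lower) reach farthest.

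On the lower side, the nuclear genes of the mitochondrial respiratory chain stood out by their number. These genes encode the complexes that pass electrons to oxygen and make ATP. Of 53 measured, 29 were called lower in NIC and none higher, with a median log2 fold change of -0.12, where 4.06% of all genes tested were called lower. Among the 37 named by tables of other comparisons, 18 were lower and none higher (median -0.11), against 4.28% lower of all genes so named. All but 1 of the 53 had a fold change below 0, and all but Cox6a2 lay within a log2 change of 0.19 of no change. Cox6a2, a subunit found in muscle and in parvalbumin interneurons, was at 1.22 to 3.63 CPM in NIC and 1.23 to 7.11 in SAL (-0.78, SE 0.29).

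Complex I subunit Ndufb3 was at 98.3, 112, 109, 106, 119, 116, 106 and 105 CPM in NIC 9 to NIC 16. In SAL 1 to SAL 8 it was 117, 120, 121, 122, 113, 121, 131 and 120 CPM. Only NIC 13 and NIC 14 exceeded the lowest SAL library (-0.15, SE 0.04, edgeR unadjusted p = 0.00337). Uqcrc1, a core subunit of complex III, lay at 165 to 222 CPM in NIC and 203 to 262 in SAL (-0.18, SE 0.06), and Ndufa5, of complex I, at 79.7 to 97.5 and 90.9 to 104 (-0.13, SE 0.04). The summed level of the 53 genes was 8403 to 10700 CPM in NIC and 10200 to 11290 in SAL, with NIC 9 lowest, and NIC 9 was the lowest library for 40 of the 53 genes. Without NIC 9, 17 were called lower (median -0.10). The count was also 17 without SAL 3, 16 without SAL 7 and 19 without NIC 16, and 12 without SAL 1, SAL 3 and NIC 10 together.

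The proteasome, the complex that degrades ubiquitinated proteins, and the mitochondrial ribosome followed. Of 34 proteasome genes 15 were lower and none higher (median -0.10; 8 of the 27 named by tables of other comparisons), among them Psmc3 and the core subunit Psma1 (-0.17), and of 32 mitochondrial ribosomal proteins 10 were lower (median -0.09), Mrps34 (-0.21) and Mrpl14 (-0.25) among them. Of the mitochondrial ribosomal proteins named by tables of other comparisons, 2 of 23 were lower. Over all genes 4.06% were lower, and 4.28% of those named by other tables. Without NIC 9 the counts were 9 and 5; they were 9 and 4 without SAL 3, 8 and 5 without SAL 7 and 9 and 6 without NIC 12, and the second was 4 without NIC 11. Of 31 cytosolic ribosomal proteins 1 was lower and none higher (median -0.02). The sex-by-treatment term passed the unadjusted threshold for 21 of the 53 respiratory chain genes and 15 of the 34 proteasome genes, against 8.89% of all genes. In females their medians were 0.02 and 0.05. In male NAc shell, from the same rats, 6 of the 53 and 7 of the 34 were called lower (medians -0.07 for both), where 1.44% of all genes were. In male VTA none of either list was called lower (medians -0.03 and 0.00), and 1 proteasome gene was called higher.

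**Figure D5:**
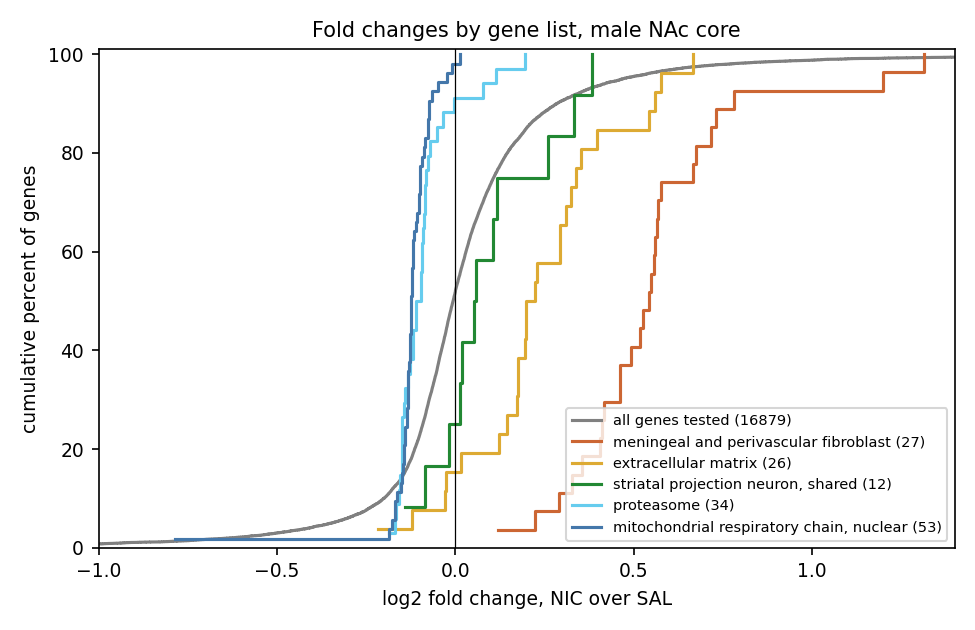
Cumulative percent of genes by log2 fold change of NIC over SAL in male NAc core, for 5 gene lists and for all 16879 genes tested. The fibroblast curve lies to the right (median 0.54), the respiratory chain and proteasome curves rise steeply just left of 0 (medians -0.12 and -0.10), and the projection neuron curve stays near that of all genes (median 0.05).

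Promoter windows were read for genes that moved together, from RefSeq on the GRCr8 build, 250 bases before to 50 after each gene's start. The start of Uqcrc1, a respiratory chain gene, and of Col1a2, a fibroblast gene, are shown as examples, chosen because each holds a motif that was searched; the windows of Ndufb3 and Dab2 held none and those of Ndufa5 and Slc26a2 only GGGCGG. Capitals mark the motif: in Uqcrc1 the reverse complement of CATGCGC, the core of the motif of the factor NRF1, and in Col1a2 the letters TATAAA. Uqcrc1 is on the plus strand of chromosome 8, at chr8:118467973-118468272, and Col1a2 on the plus strand of chromosome 4, at chr4:33518307-33518606.
Uqcrc1: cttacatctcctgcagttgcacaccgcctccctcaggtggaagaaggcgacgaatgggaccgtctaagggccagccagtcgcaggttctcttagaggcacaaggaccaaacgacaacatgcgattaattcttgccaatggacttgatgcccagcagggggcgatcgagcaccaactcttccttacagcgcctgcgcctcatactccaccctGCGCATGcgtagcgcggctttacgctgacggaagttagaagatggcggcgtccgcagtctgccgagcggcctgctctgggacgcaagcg
Col1a2: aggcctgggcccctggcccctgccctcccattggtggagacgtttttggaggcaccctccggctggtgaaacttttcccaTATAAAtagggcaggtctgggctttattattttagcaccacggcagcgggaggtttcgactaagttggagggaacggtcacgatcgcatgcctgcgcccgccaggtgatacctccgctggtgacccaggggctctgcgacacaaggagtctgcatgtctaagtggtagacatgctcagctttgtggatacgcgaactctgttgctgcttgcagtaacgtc
Of 53 respiratory chain genes, 45 had a window. CATGCGC or its reverse complement was in 8 of them (17.8%), against 3.94% of all 27457 windows, and CCGGAAG, a motif of ETS factors, in 11 (24.4% against 9.22%). Of the 18 fibroblast genes with a window, none held CATGCGC and 1 held CCGGAAG (5.56%). TATAAA was in 3 of the 18 fibroblast windows (16.7%), 3 of the 45 respiratory chain windows (6.67%) and 14.3% of all windows. GGGCGG, the GC box, was in 40.0% of respiratory chain windows, 61.1% of fibroblast windows and 34.9% of all. Both strands were searched and none of these motifs contains another. The shares describe letters and were not tested.

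Few genes of the neurons on which NIC acts were called. None of 7 members of the nicotinic receptor list with a symbol was called in either direction; their log2 fold changes ran from -0.41 to 0.09. The receptor subunit Chrnb2 was at 13.9 to 17.3 CPM in NIC and 11.8 to 19.4 in SAL, and Lynx1, a membrane protein that binds the receptor, at 243 to 419 and 308 to 530 CPM. The other 13 genes of this list were not analysed here. None of 12 shared projection neuron genes, 7 D1-type genes, 2 D2-type genes, 5 cholinergic genes or 15 genes of dopamine signalling was called. Their medians were 0.05, 0.12, 0.03, 0.20 and 0.06. With the batch covariate all 5 medians were below 0, at -0.39, -0.12, -0.84, -0.22 and -0.24, and 1 of the 12 shared genes was called lower. Without SAL 1, SAL 3 and NIC 10 no gene of these lists was called either. Levels varied widely between libraries: the sum of the 12 shared genes spanned 1463 to 6767 CPM in SAL and 1993 to 6477 in NIC. Of 13 activity-regulated genes 1 was called in each direction, against 5.78% and 4.06% of all genes. None was called in either direction without NIC 9. The lower count was also 0 without SAL 1, SAL 8, NIC 11 or NIC 12 and 2 without SAL 6. Of the 11 named by tables of other comparisons none was called. With the batch covariate 3 of the 13 were called higher and 2 lower.

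Some smaller neuronal lists had called members: 2 of 3 cortical projection neuron genes, 2 of 6 other interneuron genes and 2 of 12 ionotropic glutamate receptor genes were lower, where 4.06% of all genes were. Of the members named by tables of other comparisons, 0 of 1, 1 of 5 and 2 of 11 were. The cortical count was 1 without any single one of SAL 4, SAL 6, SAL 7, NIC 9, NIC 10, NIC 12, NIC 13 or NIC 16. Nrgn, the neurogranin of cortical and hippocampal neurons, was at 1032 to 2728 CPM in NIC and 2136 to 3245 in SAL (-0.35, SE 0.14, edgeR unadjusted p = 0.0248), with NIC 9 lowest. Sst, the somatostatin of interneurons, was lower by less (-0.18), as were the AMPA receptor subunits Gria2 (-0.28) and Gria3 (-0.22) and the vesicle protein Syt4 (-0.22). Gria2 was also lower in females (-0.27, unadjusted p = 0.0124), and its male change was -0.16 without SAL 4, in which it was highest. On the higher side were Homer3, a postsynaptic scaffold (0.26), and 7 of 28 sodium and calcium channel genes, among them Scn8a (0.30) and Cacna1d (0.14), while Cacng2 was lower. The channel count was 3 without SAL 3 or NIC 12, 4 without SAL 1, SAL 8, NIC 9 or NIC 15, and 1 in the fit of all 12 groups. Over all genes 5.78% were called higher. Of the 26 channel genes named by tables of other comparisons, 5 were higher, where 7.76% of all genes so named were. Of 21 histone methyltransferases and demethylases 6 were higher and none lower, Kmt2a (0.58, SE 0.18) and Kdm2a (0.17) leading. Among the 20 of these named by tables of other comparisons, 5 were higher. Mobp, a myelin protein, was higher (0.25), with 2 of 15 oligodendrocyte genes called higher; with the batch covariate none was higher and 1 was lower, and the count was 1 without any single one of SAL 2, SAL 3, SAL 5, SAL 7, NIC 9, NIC 13, NIC 14 or NIC 16. Pdgfra, a receptor of oligodendrocyte precursors and fibroblasts, was at 81.3 to 112 CPM in NIC and 71.0 to 86.2 in SAL (0.22). Of 4 septal neuron genes 2 were called higher and none lower, Zic1 (0.50, SE 0.16) among them, where 5.78% of all genes were called higher. Log2 fold changes of the 4 ran from -0.23 to 0.50, with 3 above 0. The septal count was 1 without NIC 9 and 1 without SAL 1.

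Library preparation divided the treatments. Batches A and B held 6 SAL libraries, batch D 4 NIC libraries, and batch C alone held both, with 4 NIC and 2 SAL. Outside batch C, batch and treatment cannot be told apart. In female NAc core only batch J held both treatments, and the same holds outside it. The sexes shared no batch in NAc core, so the sex-by-treatment term cannot be told apart from batch. Within a treatment, 1057 genes (6.26% of those tested) were called between batches D and C in NIC. Between batch C and batches A and B in SAL, 454 were (2.69%). Each of these fits held 8 libraries, against 16 for the 9.83% called between treatments. After adjustment, 1 gene passed in NIC (edgeR adjusted p = 0.0018) and none in SAL. With batch as a covariate, 1956 genes were called, 1119 of them higher (6.63% of genes tested), and 1632 of the 1660 genes kept their sign, 774 of them called. All 24 leading genes kept their sign and 21 were called; Rgs3 (log2 fold change 0.18), Tbcc (-0.21) and Abcd2 (-0.19) were not. Of the other genes given with fold changes, Cacna1d (0.11), Gria2 (-0.18), Gria3 (-0.22), Mobp (0.22), Pdgfrb (0.27), Psma1 (-0.14) and Syt4 (-0.26) also lost their call, with these values under the covariate. The fibroblast genes had a median of 0.97 and 24 of 27 higher, and the respiratory chain genes a median of -0.20 and 25 of 53 lower. This estimate rests on the 6 libraries of batch C, which include NIC 9 and the low fibroblast library SAL 8. Rasl10b was at 14.5 to 27.98 CPM in the 4 NIC and at 6.31 and 11.7 CPM in the 2 SAL libraries of batch C (log2 fold change 1.11 with the covariate, unadjusted p = 0.00245). Fibroblast sums there were 3068 to 7043 CPM in NIC and 1670 and 3128 in SAL. The parts of NIC 9, of tissue composition and of batch in the list results were not tested.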

How the data were processed

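Total RNA of NAc core tissue was sequenced as paired-end libraries. The authors trimmed reads with fastp 0.20.0, quantified transcripts with Salmon 0.12.0 on the Rnor 6 build and summed them to genes with tximport (versions from the submitters' processing notes). They deposited whole-number gene counts, estimated and not normalized, for 17637 genes in 96 libraries. Of these, 94 made up the main set. A repeat run of 1 male VTA library was not used, and female NAc core NIC 1 was used only where named. Genes had to exceed 10 counts after division by DESeq2 size factors in at least 3 of the 94. The main test was edgeR 4.0.16 (TMM, estimateDisp, glmQLFit, glmQLFTest; R 4.3.3) on the 8 NIC and 8 SAL libraries, with Benjamini-Hochberg adjustment over 16879 genes. Single genes were also tested by an exact permutation test on log2(CPM + 0.5). Interaction terms were fitted over the 4 groups concerned.

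Libraries sharing an animal number come from 1 rat per the labels, so region terms were also fitted with the animal as a block. Centred on their groups, the core and shell libraries of a rat correlated between -0.14 and 0.405 (over 0.1 in 9 of 16 rats), and those of core and VTA between -0.209 and 0.109.

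Genes given by name were the 12 with the smallest p in each direction (at least 1 CPM, a symbol other than a provisional locus or clone name such as LOC or AABR), the 3 with the smallest p of each list, and nicotinic receptor genes with at least 1 CPM. Members named because a count was small (Rem1, Rit2, Rasl11b, Notch1, Maml2, Cacng2) were chosen after their values were seen. One further gene picked by the rule is not reported here. Comparison and lists were chosen with earlier results of these data known. Symbols came from the study's supplementary tables (7961 of the genes tested) and chromosomes likewise; only identifiers were read from them. p-values measure the spread between rats. Alternatives were DESeq2 1.42.0 and its size factors, other filters, a batch covariate, batch C alone, all 12 groups in 1 fit, 1 surrogate variable (sva 3.50.0) and leaving out each library; fits without several libraries together were chosen after seeing the data. The tests were tested on simulated data.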

Additional observations from a re-analysis of the deposited data

Results flagged for a closer look

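Within each group of 8, the gap of the highest or lowest library to its neighbour was compared with the group's range, for 54 genes and 44 summed gene lists on the log2(CPM + 0.5) scale and for the total count. Of 198 such groups 23 passed Dixon's 95% critical value (chance flags about 1 in 20), and 12 of the 23 were NIC 9. NIC 9 was highest for Slc26a2 (ratio 0.563; 5.53 CPM, next 2.86), Slc16a12 (0.634), Pdgfra (0.714) and the sums of matrix (0.588), collagen (0.607), meningeal or vessel transporter (0.54) and glucocorticoid-responsive genes (0.615). It was lowest for Nrgn (0.638; 1032 CPM, next 1919), Syt4 (0.649) and the sums of cortical (0.611), dopaminergic (0.62) and activity-regulated genes (0.591).

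Among SAL libraries, SAL 4 was highest for Gria2 (0.653; 596 CPM, next 387) and lowest for the sums of red blood cell (0.535), Notch pathway (0.545) and cytosolic ribosomal protein genes (0.656). SAL 3 was lowest for Slc26a2 (0.631) and for metabotropic glutamate receptor and scaffold genes (0.532) and highest for Ndufa5 (0.636), and SAL 7 was highest for Cacna1d (0.565). In NIC, NIC 15 was highest for Noc4l (0.52604), NIC 11 for Mrpl14 (0.542) and NIC 16 for Mobp (0.532).

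In a library outside the main comparisons, female NAc core NIC 1, Th was at 327.9 CPM, where no other female NAc core library exceeded 3.83. With it included, the log2 fold change of Rasl10b in females was 1.30.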

How the results depend on the processing

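The 1660 called genes numbered between 1046 (without NIC 9) and 1995 (without SAL 4) when 1 of the 16 libraries was left out, and between 1187 and 1956 under the other alternatives. No gene passed an adjusted p of 0.05 in any edgeR fit of NIC against SAL in male NAc core except 1 with the batch covariate (AABR07041096.1); DESeq2 gave 4 (Rasl10b, Dab2, Slc26a2 and LOC108348072). Leaving out 1 library moved that number between 0 and 0. The 25 fibroblast genes higher in NIC numbered 10 with all 12 groups in 1 fit and between 16 (without NIC 9) and 25 with 1 library left out. The 29 respiratory chain genes lower in NIC numbered between 16 (without SAL 7) and 39 (without NIC 14) with 1 library left out, 15 without SAL 1 and NIC 9 together and 12 without SAL 1, SAL 3 and NIC 10 together; fewer samples entered these fits, and the cause was not otherwise tested.

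The 54 genes examined one by one kept their direction under each alternative in which they were tested; the strictest filter left 52 of them. In the fits that left out 1 library, 51 of them were called every time; Cdh5, Cd163 and Heyl were not. Over all 27 alternatives 33 of the 54 kept their call throughout and 21 lost it in at least 1: 15 in batch C alone (6 libraries), 10 with the batch covariate and 7 in the fit of all 12 groups. The region term against NAc shell, with the animal as a replicate block, gave 887 genes in place of 523, and against VTA 803 in place of 1027; the block moved no other count reported by over 1.5 times. With 8 rats per group and library totals of at least 17607159 counts, counting error is small for genes of 10 CPM, and the spread between rats set the precision; at levels of 1 CPM or less, fold changes are imprecise.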

Other observations

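Some genes outside the lists were called in the same direction in male and in female NAc core, in separate rats; the examples were chosen after their values were seen. Ch25h, which makes 25-hydroxycholesterol, was higher in both (log2 fold change 0.57 in males and 0.44 in females), as was Il1r1, the interleukin 1 receptor (0.64 and 0.38). Itgb1, the beta 1 integrin, was higher by less (0.16 and 0.11). In both sexes library preparation batch divided most NIC libraries from most SAL libraries. None of the 3 genes passed an adjusted p of 0.05 with edgeR in either sex. Genes called in the same direction in both sexes made up 38 of the 1660 male calls, while 37 were called in opposite directions. Of all genes tested, 6.45% were called in female NAc core.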
